A study of Mus musculus with 6 samples.

Results

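Cyclic AMP is made from ATP by adenylyl cyclases (Adcy), which G protein-coupled receptors switch on or off, and it is broken down by phosphodiesterases (Pde). A-kinase anchoring proteins (Akap) hold protein kinase A (PKA), the main cAMP effector, at defined places in the cell, often together with a phosphodiesterase or a phosphatase. These genes set how much cAMP reaches PKA and where, and PKA is among the kinases that the drug H89 inhibits.

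The genes were taken by symbol from the gene table of 6 CT26 tumors: each symbol that starts with Adcy, Pde or Akap followed by a digit. This gave 51 of the 23557 genes in the table, of which 10 were Adcy, 26 Pde and 15 Akap genes. Some genes carry a family name without the family's activity, such as Pde4dip (myomegalin, a Golgi and centrosome scaffold), and these were kept.

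CT26 is a colon carcinoma line from Balb/c mice. Female Balb/c mice of 7 weeks received 500000 CT26 cells under the skin, and from day 6 were injected i.p. 2 times a week with NaCl or with 10 mg/kg of H89 in NaCl, an inhibitor of PKA and of some other kinases. Whole tumors were taken at day 14, and total RNA from 3 NaCl tumors and 3 H89 tumors was sequenced. The tumor is a mixture of the grafted line and of host stroma and leukocytes, the treatment was not restricted to any of these cells, and in such bulk RNA fewer cells of a type and less RNA per cell cannot be told apart.

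Estimated counts summed to between 27067349 and 31958793 per tumor, and levels are given as counts scaled to a library of 1000000 (CPM), with library sizes adjusted by TMM. A gene was tested when its mean over the 6 tumors was at least 0.5 CPM, which 33 of the 51 genes and 13118 genes in all reached. The tumors are numbered 1 to 3 in each group and, by the study's description, came from 3 mice a group. Genes are ranked by level only as CPM per kilobase of the longest annotated protein-coding transcript. Ratios and sums in plain CPM serve to compare tumors, not genes, since transcript length is left in them.

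No cAMP gene passed the test after adjustment, and the genes closest to it were Pde1b and Akap8, both higher in H89 tumors. By edgeR's quasi-likelihood test with Benjamini-Hochberg adjustment over all genes tested, 0 of the 33 passed an adjusted p of 0.05, while 1.59% of all genes did. At an unadjusted p under 0.05 there were 4 of the 33 (12.1%), against 25.0% of all genes. All 4 were higher in H89 tumors, where the background was 13.1% of genes higher and 11.9% lower. They were Pde1b, Akap8, Pde6g and Pde7a. Pde6g reached the 0.5 CPM mean only through its level in H89 tumors, so it cannot support the count of 4. Pde1b and Akap8 stayed under an unadjusted p of 0.05 in 6 of 6 fits that left out 1 tumor, and Pde6g and Pde7a in 2 of 6 each, with 2 genes in all left without NaCl tumor 2. Under DESeq2's Wald test 2 of the genes passed the adjusted threshold, Pde1b and Akap8, where 10.4% of all genes did.

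In 8 of the 33 genes (24.2%) the 3 H89 values all lay on 1 side of the 3 NaCl values, against 30.6% of all genes tested. The H89 tumors were above in 7 (Pde1b, Pde6g, Pde7a, Pde7b, Akap5, Akap8 and Akap8l), a direction that 15.2% of all genes showed, and below in 1 (Pde12), a direction that 15.5% showed. Pde6g was tested only because of its level in H89 tumors, so it cannot support the count of 7 or of 8. The count of 8 became 15 without NaCl tumor 1, where 42.1% of all genes did not overlap, and 15 without H89 tumor 1, where 46.0% did not. For such a gene the exact two-sided permutation test of mean log2(CPM + 0.5) between 3 and 3 tumors gave p = 0.1, the smallest it can give.

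A positive log2 fold change, higher in H89 tumors, was seen in 22 of the 33 genes (66.7%) and in 50.6% of all genes tested. Pde6g, tested only because of its level in H89 tumors, is among the 22 and cannot support that count. The median log2 fold change was 0.02 over the 5 Adcy genes tested, 0.15 over the 17 Pde genes and 0.07 over the 11 Akap genes, beside 0.004 over all genes. The Pde median fell to 0.03 under quantile normalization, 0.04 after a correction for GC content and length and 0.05 without H89 tumor 3. The Adcy median became -0.15 under quantile normalization and -0.10 without NaCl tumor 1. The Akap median became -0.09 after the correction for GC content and length, which put the median of all genes at -0.05.

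**Figure D1:**
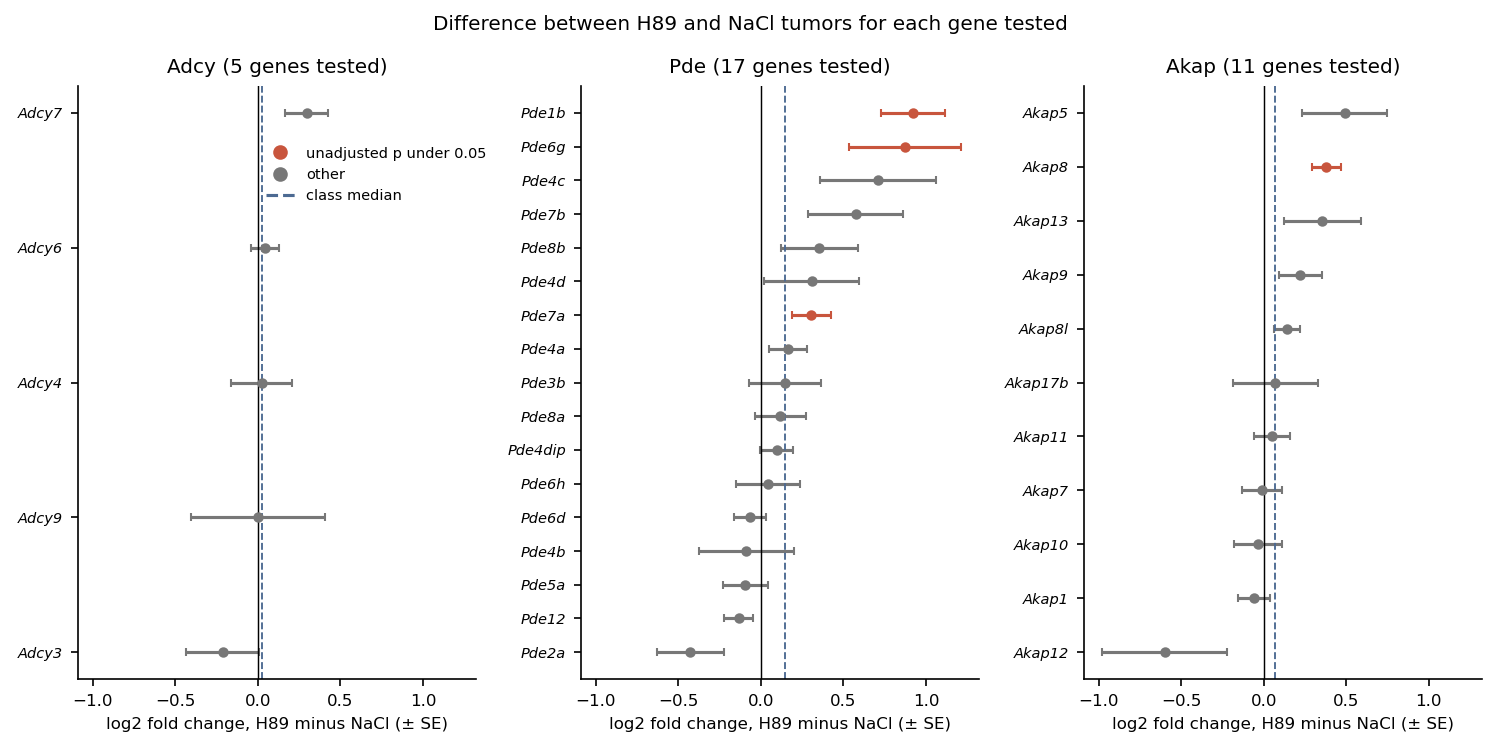
Log2 fold change (x axis, H89 minus NaCl, ± SE) of each tested gene in the 3 classes, from 3 NaCl and 3 H89 tumors, with genes at an unadjusted p under 0.05 in red and the class median as a dashed line. The 4 red genes all lie to the right of 0, and the lowest value is that of Akap12 at -0.60. Pde6g, among the 4, was tested only because of its level in H89 tumors.

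Transcripts of 2 adenylyl cyclases made up most of their class. Adcy7 and Adcy6 had mean levels of 12.7 and 12.6 CPM per kilobase, ahead of Adcy4 at 1.23, Adcy3 at 1.04 and Adcy9 at 0.15. Together Adcy6 and Adcy7 made up between 88.3% and 92.3% of the class per kilobase in every tumor. Adcy1, Adcy2, Adcy5, Adcy8 and Adcy10 were below the level tested, with Adcy8 at a mean of 0.0124 CPM in NaCl tumors and at 0 in H89 tumors. Of these, Adcy10, the soluble cyclase that bicarbonate stimulates, Adcy5, a relative of Adcy6, and Adcy1 are named here after their values were seen. Adcy10 was at 0.719, 0.746 and 0.402 CPM in NaCl tumors and lower, at 0.25, 0.395 and 0.365 CPM, in H89 tumors. Adcy5 was at 0.216, 0.336 and 0.329 CPM in NaCl tumors and higher, at 0.784, 0.426 and 0.365 CPM, in H89 tumors. Adcy1 was at 0, 0.0373 and 0 CPM in NaCl tumors and higher, at 0.178, 0.0912 and 0.0608 CPM, in H89 tumors. None of these was tested, and the gaps between the groups are of at most about 1 count. How many of all untested genes were apart in this way was not computed.

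Adcy7 is a cyclase that G protein beta-gamma subunits stimulate and that blood cells are known to use. Its level was 62.4, 73.6 and 67.9 CPM in NaCl tumors 1 to 3, and 68.4, 86.9 and 95.1 CPM in H89 tumors 1 to 3. H89 tumors 2 and 3 were above every NaCl tumor, while H89 tumor 1 lay among them. The difference was 0.30 on the log2 scale (SE 0.13, adjusted p = 0.204 by edgeR), between 0.19 and 0.42 with any single tumor left out.

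Adcy6, which calcium inhibits and PKA can phosphorylate, overlapped between the groups, at 75.1 ± 5.74 CPM in NaCl tumors and 77.4 ± 3.37 CPM in H89 tumors (SD, n = 3). Its log2 fold change was 0.04 (SE 0.09), and it turned to -0.0006 after the correction for GC content and length. The ratio of Adcy7 to Adcy6 CPM was 0.764, 1.02 and 0.953 in NaCl tumors and 0.93, 1.09 and 1.21 in H89 tumors. The 2 groups overlapped in this ratio.

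The other cyclases tested also overlapped between the groups. Adcy3, a calcium-stimulated cyclase best known from olfactory neurons, was 5.55 ± 1.24 CPM in NaCl tumors and 4.77 ± 0.874 CPM in H89 tumors, a log2 difference of -0.21 (SE 0.22) that was -0.03 without NaCl tumor 3. Adcy4 stood at 4.29 ± 0.666 and 4.36 ± 0.324 CPM. Adcy9, a widely used cyclase that responds weakly to forskolin, stood at 0.746 ± 0.298 and 0.744 ± 0.245 CPM, with an SE of 0.41 on the log2 scale.

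**Figure D2:**
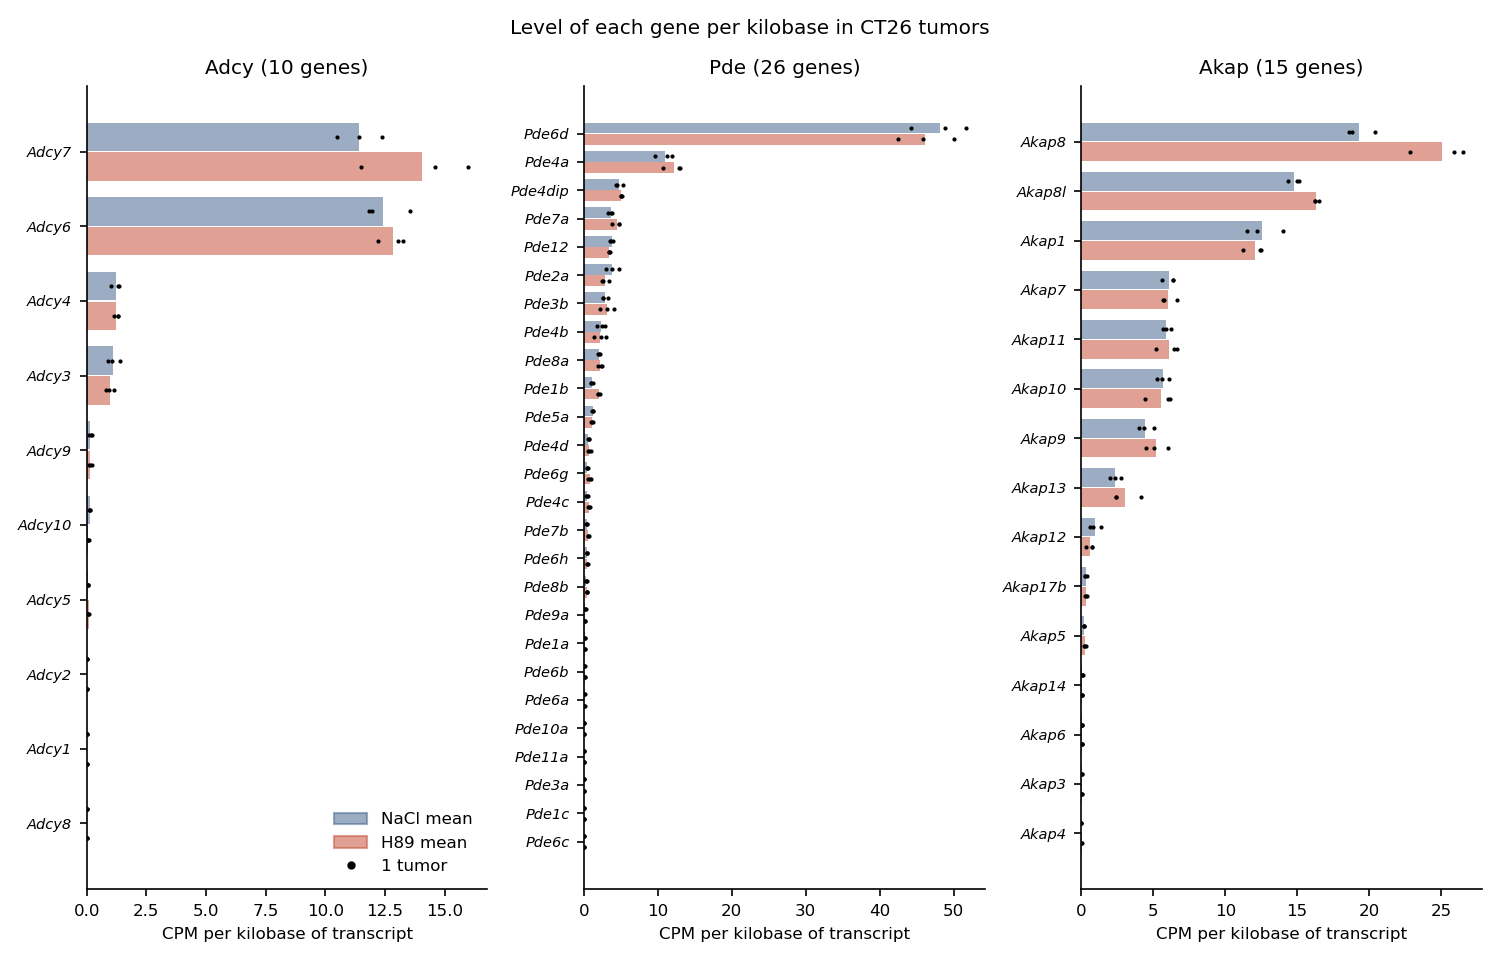
Mean CPM per kilobase of transcript (x axis) of all 51 genes in NaCl (blue) and H89 (red) tumors, with each tumor as a point. Adcy7 and Adcy6, Pde6d and Pde4a, and Akap8, Akap8l and Akap1 lead their classes.

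Among the phosphodiesterases, the most abundant gene per kilobase was 1 that hydrolyses no cyclic nucleotide. Pde6d, a chaperone for prenylated proteins such as Ras, had 47.2 CPM per kilobase, followed by Pde4a at 11.5, Pde4dip at 4.83, Pde7a at 4.01 and Pde12 at 3.56. Pde6d did not separate the groups, at 59.9, 56.6 and 51.3 CPM in NaCl tumors and 58.0, 53.2 and 49.3 CPM in H89 tumors. Pde4dip stood at 39.1 ± 4.38 and 41.8 ± 0.745 CPM.

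Pde genes below the level tested were Pde1a, Pde1c, Pde3a, Pde6a, Pde6b, Pde6c, Pde9a, Pde10a and Pde11a. Pde6c, the cone photoreceptor enzyme, had no count in any tumor, and Pde6a and Pde6b, the rod enzyme's catalytic subunits, had means of at most 0.295 CPM in either group. Pde6g, the inhibitory gamma subunit of that enzyme, was measured at 0.322, 0.343 and 0.427 CPM in NaCl tumors and 0.741, 0.797 and 0.476 CPM in H89 tumors. Its log2 fold change was 0.87 (SE 0.34, adjusted p = 0.168 by edgeR), from 9 to 26 counts per tumor. Its NaCl mean of 0.364 CPM was under the 0.5 CPM limit, so it was tested only because of its level in H89 tumors and cannot support a count of genes that rose.

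The enzymes that hydrolyse cAMP alone are Pde4, Pde7 and Pde8. All 8 of these genes were tested, and 7 had a positive log2 fold change, against 50.6% of all genes tested. Their median was 0.31. Under quantile normalization Pde4b was at -0.22, Pde4d at -0.0064 and Pde8a at -0.012, and the others stayed positive. The summed level of the 8 genes was 94.4, 103 and 95.7 CPM in NaCl tumors and 104, 119 and 112 CPM in H89 tumors. The H89 sums all lay above, by about 1 CPM between H89 tumor 1 and NaCl tumor 2.

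Pde4a, the leading member and a target of rolipram, stood at 51.9, 55.6 and 44.4 CPM in NaCl tumors and 60.0, 60.6 and 49.7 CPM in H89 tumors. The groups overlapped through H89 tumor 3, and the log2 difference was 0.17 (SE 0.12). Pde4a held between 70.0% and 84.7% of the Pde4 level per kilobase in the 6 tumors. Pde4b, the form that leukocytes are known to induce, stood at 10.1 ± 2.29 CPM in NaCl tumors and 9.48 ± 3.46 CPM in H89 tumors, and its direction turned, to a log2 value of 0.16, without H89 tumor 1. Pde4d stood at 2.49 ± 0.378 and 3.07 ± 1.05 CPM, a log2 difference of 0.31 (SE 0.29) that was 0.03 without H89 tumor 3 and turned to -0.0064 under quantile normalization.

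Pde7a, a high-affinity enzyme known from T cells, was at 20.6, 23.2 and 24.0 CPM in NaCl tumors. In H89 tumors it was at 24.1, 29.8 and 30.0 CPM. H89 tumor 1 lay only just above NaCl tumor 3, so the groups barely separated. The log2 fold change was 0.31 (SE 0.12, adjusted p = 0.171 by edgeR), and 0.14 after the correction for GC content and length. Pde8a, a cAMP-specific enzyme insensitive to the general inhibitor IBMX, was at 7.57 ± 0.707 and 8.21 ± 1.04 CPM. Pde4c, Pde7b and Pde8b, named here after their values were seen, had log2 fold changes of 0.71, 0.57 and 0.35, all at levels under 3 CPM and adjusted p values from 0.251 to 0.378 by edgeR.

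Pde1b, a calcium- and calmodulin-activated enzyme that hydrolyses cAMP and cGMP, showed the largest log2 fold change and the smallest adjusted p of the 33 genes tested. It was measured at 4.14, 3.21 and 2.89 CPM in NaCl tumors, from 79 to 115 counts. In H89 tumors it was measured at 7.13, 6.35 and 5.93 CPM, from 195 to 209 counts. Every H89 tumor lay above every NaCl tumor by at least 1.79 CPM.

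The fold was 1.90, a log2 difference of 0.92 (SE 0.19), with an unadjusted p of 0.0014 and an adjusted p of 0.0596 in edgeR's quasi-likelihood test, which missed the threshold. The log2 value stayed between 0.82 and 1.08 with any single tumor left out, and adjusted p then lay between 0.0875 and 0.164. DESeq2 gave an adjusted p of 0.00287, and the limma fit with correction for GC content and length gave 0.0404. Quantile normalization with limma gave a log2 value of 0.72 with an adjusted p of 0.115. Under the replicate block in edgeR the adjusted p was 0.0651. In the order of all 13118 genes by p, Pde1b was number 307. It is the only Pde1 gene tested: Pde1a and Pde1c had means of at most 0.341 CPM.

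Pde1b lies on chromosome 15, plus strand, at 103503034 to 103530052 (GRCm38, GENCODE M21), with no annotated exon of another gene overlapping its exons. The 185 bases before its annotated start (RefSeq, GRCm38.p6, chr15:103502849-103503033), shown as the region ahead of the gene with the largest change, are 68.6% G and C:
Pde1b upstream: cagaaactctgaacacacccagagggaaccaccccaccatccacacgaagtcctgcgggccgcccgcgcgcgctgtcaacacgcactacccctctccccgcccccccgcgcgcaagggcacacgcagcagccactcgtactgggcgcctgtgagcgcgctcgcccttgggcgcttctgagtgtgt

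The other enzymes that accept both nucleotides overlapped between the groups. Pde2a, which cGMP stimulates, was at 12.5, 15.7 and 19.7 CPM in NaCl tumors and 10.3, 14.5 and 10.9 CPM in H89 tumors. It had a log2 difference of -0.43 (SE 0.20, adjusted p = 0.236 by edgeR), with H89 tumor 2 inside the NaCl range, and of -0.25 without NaCl tumor 3. Pde3b, which cGMP inhibits, was at 18.3 ± 2.25 and 20.2 ± 6.18 CPM, and its log2 value turned from 0.15 to -0.10 without H89 tumor 3. The summed level of this group was 38.5 ± 5.46 CPM in NaCl tumors and 39.5 ± 6.39 CPM in H89 tumors. Pde5a, the cGMP-specific enzyme that sildenafil inhibits and the only one of its kind tested, was at 8.67 ± 0.0687 and 8.11 ± 0.861 CPM.

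**Figure D3:**
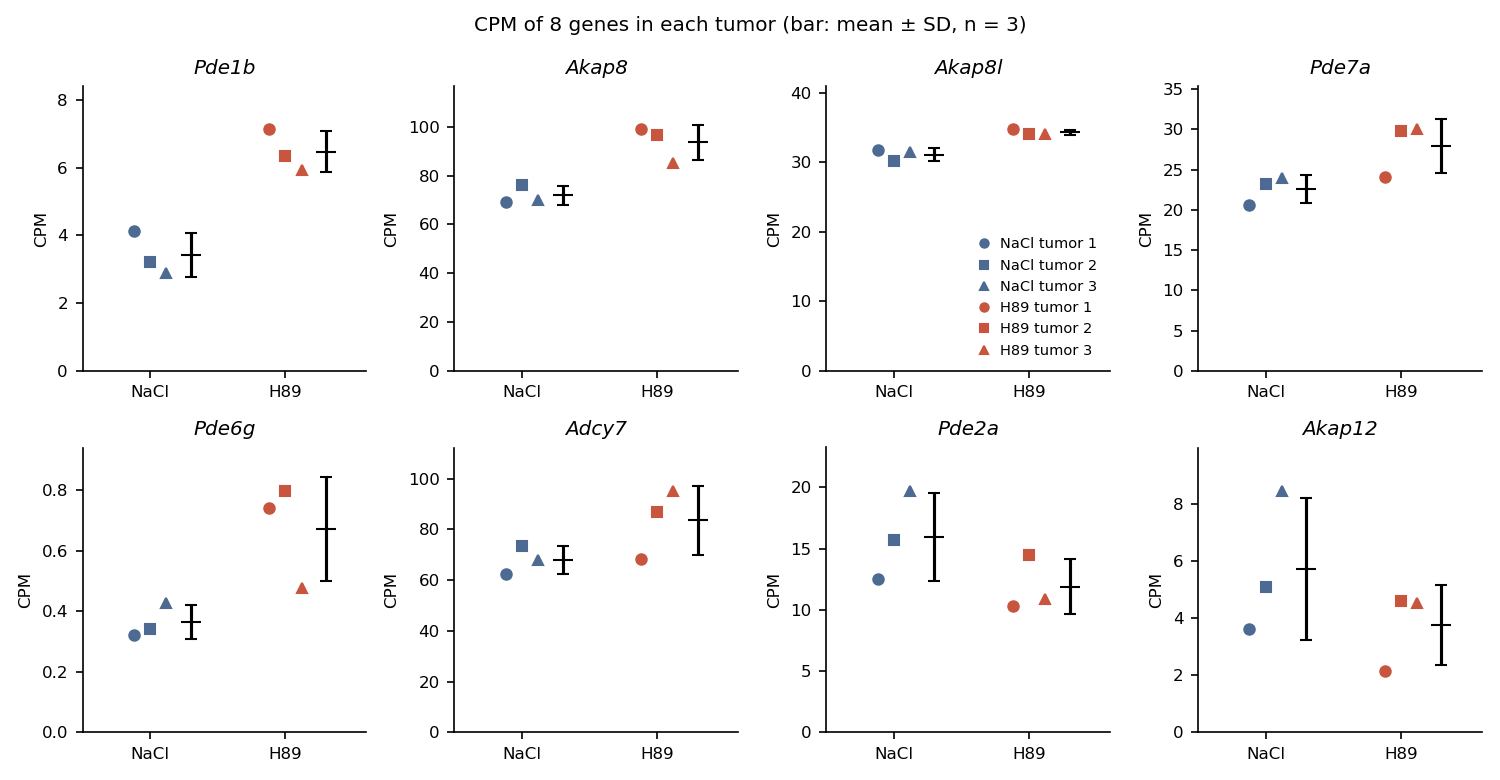
CPM (y axis from 0) of 8 genes in each of 3 NaCl (blue) and 3 H89 (red) tumors, with tumor number by symbol and mean ± SD as a bar. H89 tumors lie above all NaCl tumors for Pde1b, Akap8, Akap8l, Pde7a and Pde6g, and the groups overlap for Adcy7, Pde2a and Akap12.

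The anchoring proteins were led by nuclear forms. Akap8 (AKAP95), which binds PKA's type II regulatory subunit in the nuclear matrix and at condensing chromosomes, had 22.2 CPM per kilobase, followed by its nuclear homolog Akap8l at 15.6 and by Akap1, which anchors PKA at the outer mitochondrial membrane, at 12.3. Akap3, Akap4, Akap6 and Akap14 were below the level tested. Akap4, an anchor of the sperm tail, was at 0 in every tumor but H89 tumor 2, where it had 0.213 CPM.

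Akap8 was measured at 69.3, 76.2 and 70.2 CPM in NaCl tumors and at 98.9, 96.6 and 85.2 CPM in H89 tumors. The lowest H89 tumor was 9.0 CPM above the highest NaCl tumor, and each value rests on 1920 or more counts. The log2 fold change was 0.38 (SE 0.09), a 1.30-fold level, with an unadjusted p of 0.0027 and an adjusted p of 0.0721 by edgeR. With any single tumor left out it lay between 0.34 and 0.44, with adjusted p between 0.0841 and 0.182. DESeq2 gave an adjusted p of 0.0145. The limma fit with correction for GC content and length gave a log2 value of 0.29 with an adjusted p of 0.0876. Quantile normalization with limma gave an adjusted p of 0.0894, and the replicate block in edgeR 0.0753.

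Akap8l was also higher in each H89 tumor, by less. Its CPM was 31.7, 30.1 and 31.5 in NaCl tumors and 34.7, 34.1 and 34.1 in H89 tumors, a log2 difference of 0.14 (SE 0.08, adjusted p = 0.295 by edgeR). The ratio of Akap8 to Akap8l CPM was 2.18, 2.54 and 2.23 in NaCl tumors against 2.85, 2.83 and 2.50 in H89 tumors, with H89 tumor 3 below NaCl tumor 2. Akap8 made up between 25.6% and 27.7% of the Akap level per kilobase in NaCl tumors and between 28.1% and 33.7% in H89 tumors.

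Both genes lie on the minus strand of chromosome 17 in GRCm38 (GENCODE M21), Akap8 at 32303672 to 32321238 and Akap8l just ahead of it at 32321424 to 32350607. The 185 bases between the end of Akap8l and the start of Akap8 (RefSeq, GRCm38.p6, minus strand, chr17:32321239-32321423) are 65.4% G and C and are shown because this is the whole space that separates the pair:
Akap8 upstream: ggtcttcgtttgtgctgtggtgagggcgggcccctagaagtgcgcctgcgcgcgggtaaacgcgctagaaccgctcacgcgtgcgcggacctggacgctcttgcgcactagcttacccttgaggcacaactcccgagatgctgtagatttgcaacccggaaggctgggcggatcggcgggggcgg

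The remaining anchors did not pass either threshold. Akap5 (AKAP150), which holds PKA with calcineurin at the plasma membrane, was at 1.14, 1.15 and 1.36 CPM in NaCl tumors and 1.41, 1.55 and 2.15 CPM in H89 tumors, a log2 difference of 0.49 (SE 0.26, adjusted p = 0.273 by edgeR). That value was 0.19 after the correction for GC content and length, 0.13 under quantile normalization and 0.28 without H89 tumor 3. Akap12 (gravin), a plasma membrane scaffold for the beta2-adrenergic receptor, had the lowest log2 value, -0.60 (SE 0.38), which was -0.21 without NaCl tumor 3 and -0.33 without H89 tumor 1. It was at 3.63, 5.07 and 8.44 CPM in NaCl tumors and 2.14, 4.59 and 4.53 CPM in H89 tumors, so that the spread within NaCl tumors was wider than the difference.

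Large scaffolds varied by tumor. Akap13 (AKAP-Lbc), which is also an activator of RhoA, was at 29.1, 34.8 and 24.8 CPM in NaCl tumors and 30.4, 30.3 and 52.6 CPM in H89 tumors. Its log2 value of 0.35 rested on H89 tumor 3 and was 0.04 without it. Akap9 (AKAP450), an anchor of the Golgi and centrosome, was at 58.3 ± 6.91 and 67.9 ± 9.84 CPM, a log2 difference of 0.22 (SE 0.13) that was 0.02 after the correction for GC content and length and 0.10 without H89 tumor 3. Akap11 (AKAP220), which also binds GSK3 and protein phosphatase 1, was at 55.2 ± 2.54 and 57.1 ± 7.33 CPM, and Akap1 at 47.3 ± 4.76 and 45.3 ± 2.64 CPM. Akap11 turned from 0.05 to -0.17 on the log2 scale after the correction for GC content and length. Akap6, a perinuclear anchor of muscle cells named here after its values were seen, was below the level tested but apart between the groups, at 0.216 to 0.224 CPM in NaCl tumors and 0.395 to 0.486 CPM in H89 tumors, from 6 to 16 counts. Akap7, Akap10 and Akap17b had log2 fold changes between -0.04 and 0.07.

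Summed over each class, the cyclases came to 155 ± 2.73 CPM in NaCl tumors and 172 ± 17 CPM in H89 tumors, the phosphodiesterases to 272 ± 7.81 and 285 ± 10.6 CPM, and the anchoring proteins to 339 ± 9.85 and 379 ± 24.1 CPM. Anchoring protein sums were 327, 342 and 346 CPM in NaCl tumors and 355, 380 and 403 CPM in H89 tumors, without overlap. The gap was about 9 CPM, between NaCl tumor 3 and H89 tumor 1. Akap8 alone was at 70.2 and 98.9 CPM in these tumors, further apart than the sums. The separation of the sums therefore depends on Akap8. The cyclase sums overlapped, because H89 tumor 1 had the lowest of the 6 at 152 CPM. On the per-kilobase scale, the level of all cyclases divided by that of the cAMP-specific phosphodiesterases was 1.32, 1.26 and 1.31 in NaCl tumors and 1.20, 1.23 and 1.34 in H89 tumors. The groups overlapped in this ratio.

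**Figure D4:**
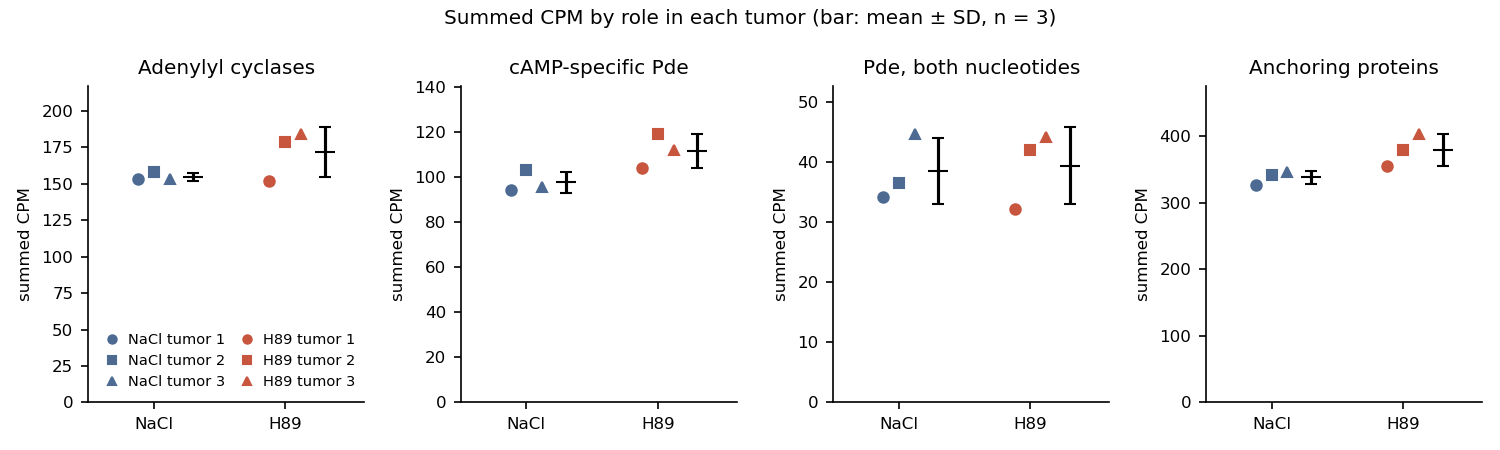
Summed CPM (y axis from 0) of the cyclases, the cAMP-specific phosphodiesterases, those that accept both nucleotides, and the anchoring proteins, in each of 3 NaCl (blue) and 3 H89 (red) tumors, with mean ± SD as a bar. H89 sums lie above NaCl sums for the cAMP-specific phosphodiesterases and the anchoring proteins and overlap with them for the other 2 sets.

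CREB, a transcription factor that PKA activates, binds the cAMP response element, whose full site is TGACGTCA and whose core is TGACG, and both were searched on both strands. RefSeq windows from 250 bases before to 50 bases after a start were found for 41 of the 51 genes, 71 windows in all. The full site was in 0 of the 41 genes and in 2.60% of the 16679 genes of the table with a window. The core, which the full site contains, was in 11 of the 41 (26.8%) and in 27% of all these genes. Counted by window, it was in 15.5% of the 71 windows and in 24.3% of the 20334 windows of all these genes. Pde1b and Akap8 held neither in these windows, and the absence of these letters says nothing of the factor's binding elsewhere.

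The core was found ahead of a start of Adcy7, Pde4a and Akap11, which are shown as an example of each class. Adcy7 and Pde4a ranked 1 and 2 per kilobase in their classes, and Akap11 ranked 5. The core is in capitals (read from the other strand in Adcy7 and Pde4a). For Adcy7 (chr8:88282944-88282988, plus strand) and Pde4a (chr9:21184031-21184075, plus strand) the start lies inside the annotated gene, and Akap11 is at chr14:78536965-78537009 on the minus strand, where a further core on the opposite strand was left in lower case:
Adcy7: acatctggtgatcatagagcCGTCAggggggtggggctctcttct
Pde4a: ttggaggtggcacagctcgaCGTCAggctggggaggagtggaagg
Akap11: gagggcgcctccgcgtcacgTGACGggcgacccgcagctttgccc

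Other genes of the pathway were taken as a list of 46 G proteins, PKA subunits and inhibitors, EPAC and Popeye effectors, Gs-coupled receptors, cAMP exporters, guanylate cyclases and CREB family genes, of which 35 were tested. At an adjusted p under 0.05 by edgeR 1 rose and 0 fell (1.59% of all genes passed), and at an unadjusted p under 0.05 there were 4 higher and 1 lower (25.0% of all genes). The gene that rose was Abcc5 (MRP5), an exporter of cyclic nucleotides, at 45.4 ± 2.12 CPM in NaCl tumors and 66.1 ± 2.49 CPM in H89 tumors, a log2 fold change of 0.54 (SE 0.08, adjusted p = 0.0407). It passed in no edgeR fit that left out 1 tumor, with adjusted p from 0.0663 to 0.142. At most 0.0915% of all genes passed in those fits, so they say little of Abcc5. Its adjusted p was 0.0505 under quantile normalization with limma and 0.064 under the replicate block in edgeR. It was 0.04 under median ratio normalization in edgeR, 0.0404 by limma after the correction for GC content and length, and 5.05e-05 by DESeq2, where 10.4% of all genes passed. The others past the unadjusted threshold were Ptger4, a prostaglandin E2 receptor (0.75 on the log2 scale), Pkib, a PKA inhibitor (0.58), Rapgef3 (EPAC1), a cAMP effector besides PKA (0.41), and Gnai2, a G protein that inhibits cyclases (-0.34), all with adjusted p of at least 0.101. The median over the 35 was -0.03, and 0 of the 6 CREB family genes passed either threshold.

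Marker levels of other cells were not even across these tumors. T cell markers summed to 22.9, 12.5 and 10.4 CPM in NaCl tumors and 39.2, 22.4 and 54.6 CPM in H89 tumors. All 7 had a positive log2 fold change, with a median of 1.28, and 0 passed the adjusted and 5 the unadjusted threshold in edgeR. Fibroblast markers summed to 2170 to 2440 CPM in NaCl tumors and 2450 to 3140 CPM in H89 tumors, with a positive log2 fold change in 5 of 5 and an adjusted p of at least 0.120 by edgeR. The part of these cells in the values of Pde1b, Pde7a, Adcy7 and Akap8 was not tested.

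Endothelial markers had a median log2 fold change of -0.31 over 6 genes, macrophage markers 0.06 over 6, neutrophil markers -0.20 over 4, B cell markers 0.69 over the 2 tested, and pericyte and smooth muscle markers -0.01 over 6. The neutrophil markers went both ways, with Csf3r at 0.90 and Cxcr2 at 0.29 against S100a8 at -0.85 and S100a9 at -0.70. Skeletal muscle markers summed to 17.9 CPM in H89 tumor 1 and to between 0.768 and 2.12 CPM in the other 5, and adipocyte markers to 2.60 CPM there and at most 0.447 CPM elsewhere, so that H89 tumor 1 stood apart. Of 5 keratinocyte markers 1 was tested. Of the 6 epithelial markers for CT26 cells 5 were tested, 4 of them with a positive log2 fold change and 0 past the adjusted threshold in edgeR. Krt7 was at 0.452 ± 0.0457 CPM in NaCl tumors and 1.19 ± 0.274 CPM in H89 tumors, a log2 fold change of 1.43 with adjusted p = 0.0609. Krt19, Krt8 and Cdh1 had log2 fold changes of 2.56 (SE 1.15), 1.03 (SE 0.86) and 0.05 (SE 0.45). In the other direction, with a log2 fold change of -1.04 and adjusted p = 0.0653, Krt18 had 16.7 ± 5.91 CPM in NaCl tumors and 8.11 ± 0.311 CPM in H89 tumors. Epcam was near 0, at 0.0244 ± 0.0212 and 0.453 ± 0.627 CPM. Krt7 and Krt19, with NaCl means of 0.452 and 0.168 CPM, were tested only because of their level in H89 tumors. They cannot support a count of genes that rose. Krt19 was at 2.53 CPM in H89 tumor 1 against 0.365 and 0.243 CPM in H89 tumors 2 and 3. Krt8 was at 2.17 CPM there against 0.456 and 0.851 CPM.

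Some of the genes share their place with another. In GENCODE M21 Adcy3 overlaps Cenpo, Adcy6 overlaps Gm29331, Akap9 overlaps Cyp51, Pde5a overlaps 4930447N08Rik, Pde7a overlaps Gm16093, Pde12 overlaps Arf4 and Pde6h overlaps Arhgdib, each on the opposite strand. Whether the libraries kept the strand is not given in the sources used here, so reads from such a pair may not have been told apart. On the same strand, Pde2a overlaps Gm45837, Pde4dip overlaps Mir7225 and Pde12 overlaps Mir7672, which the strand of a read cannot separate. Arhgdib had a mean of 316 CPM over the 6 tumors against 2.50 ± 0.179 CPM of Pde6h in NaCl and 2.57 ± 0.249 CPM in H89 tumors, and the value of Pde6h is uncertain. Pde6h and Pde12 are named here after their values were seen. Pde12, an enzyme that removes poly(A) from mitochondrial RNA, was at 27.2, 28.6 and 30.5 CPM in NaCl tumors and 26.6, 25.6 and 26.4 CPM in H89 tumors, a log2 difference of -0.13 (SE 0.09, adjusted p = 0.375 by edgeR). Arf4 on its other strand had a mean of 171 CPM and a log2 difference of -0.04.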

How the data were processed

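RNA from CT26 tumors (3 NaCl, 3 H89) was sequenced on a BGISEQ-500. The submitters' processing notes name kallisto, DESeq2 and GRCm38. Versions and settings are not given in the sources used here. The authors deposited 1 table whose values were estimated counts per gene, although it is called a TPM table: values were far above 1000000 in sum and differed between tumors. Each value was rounded, and the 13118 genes averaging 0.5 CPM or more were fitted with edgeR 4.0.16 (R 4.3.3; TMM, quasi-likelihood, treatment only), Benjamini-Hochberg adjusted. SE is the log2 fold change divided by the root of F. Printed CPM uses TMM library sizes. The fit was tested on simulated data. Alternatives used limma 3.58.1, DESeq2 1.42.0, other filters and scalings, a replicate block, each tumor left out, and a correction for GC content and transcript length, which 98.5% of tested genes had. All 51 genes matched GENCODE M21 by symbol. The genes and lists were chosen with earlier results of these data known. Genes named with values were those past either threshold, the 3 highest per kilobase and the largest log2 change in each class, and 19 chosen for their known roles, with others marked where they appear.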

Additional observations from a re-analysis of the deposited data

How the results depend on the processing

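The count of genes past the adjusted threshold was 0 in edgeR under median ratio normalization and under the other filters. It was also 0 under the replicate block and with any tumor left out (0 to 0). Quantile normalization with limma gave 0 as well, where 0.16% of all genes passed. Those zeros say nothing of stability, since under the block 0 of all genes passed, and with a tumor left out at most 0.0915% did. The count was 2 with DESeq2 (10.4% of all genes) and 1 after the correction for GC content and length (4.45%). The cause was not tested. The count past the unadjusted threshold was 7 of 50 with no filter (19.6% of all genes) and 7 of 33 under the replicate block (28.6%), and ran from 2 to 5 with 1 tumor left out (18.5% to 26.3%). The count of genes without overlap was 5 under quantile normalization, 7 under median ratio normalization and 9 after the GC and length correction. It was 7 with library totals in place of TMM (chosen after seeing the data). The share of all genes was not computed under these settings, so these counts cannot be read against a background. With 1 tumor left out the count ran from 9 to 15 (37.8% to 46.0% of all genes). Class medians of the log2 fold change moved for Adcy to -0.15 under quantile normalization, for Pde to 0.0306 under quantile normalization and 0.0368 after the GC and length correction, and for Akap to -0.0908 after that correction. With 1 tumor left out they ran from -0.10 to 0.10 for Adcy, from 0.05 to 0.22 for Pde and from 0.02 to 0.16 for Akap.

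Some genes changed sign in some fits, none of them past the adjusted threshold. Under quantile normalization Adcy4 was -0.15, Pde4d -0.0064 and Pde8a -0.012. After the GC and length correction Adcy6 was -0.0006, Akap11 -0.17, Pde3b -0.0528 and Pde6d 0.0102. Adcy9 was 0.0090 under the replicate block. With 1 tumor left out Adcy4 ran from -0.10 to 0.10, Adcy9 from -0.29 to 0.30, Akap1 from -0.12 to 0.0233, Akap11 from -0.0237 to 0.15, Pde3b from -0.10 to 0.35 and Pde4b from -0.36 to 0.16.

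Same-numbered tumors correlated at 0.163, 0.0609 and -0.0249 in their deviations from the group means, and NaCl tumors 2 and 3 correlated best with an H89 tumor of another number, so the replicate numbers were not taken as pairs. Under the block 3 of the 4 genes stayed past the unadjusted threshold. With 3 tumors a group, genes near 0.5 CPM rest on few counts, and 26 of the 33 cAMP genes had a log2 fold change under 2 SE.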
